A study of Mus musculus with 6 samples.

Results

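The 10 Skint genes of the mouse, Skint1 to Skint10, were followed in hair germ stem cells of back skin. They were found by symbol, as 10 of the 46517 genes in the files. The family was chosen by measured values, because Skint5 and Skint7 stood far higher in the knockouts than in WT, so the values of Skint5 and Skint7 are given as a description, without a test, and the contrasts that singled them out support nothing about the family.

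The libraries were RNA from sorted cells taken 3 days after depilation from mice of 60 days, with 2 libraries a group. The mice of LEF1_TCF7dKO, called the double knockout here, were Lef1fl/fl and Tcf7-/-, those of LEF1cKO were Lef1fl/fl, and those of WT had neither. All groups, WT included, carried Sox9-CreER, an inducible Cre that acts where Sox9 is active, and the reporter R26-lox-stop-lox-YFP. The Tcf7 loss of the double knockout was carried by the whole animal, T cells included. The labels give the sex of every library as mixed and do not say that replicates came from separate animals, so the p-values cover only the variation among these libraries, which could be technical. The labels list YFP, CD34, Sca-1, integrin b1 and P-cadherin as sort markers. The libraries held 40480694 to 63220022 expected counts, and 14743 to 16032 genes reached 1 TPM in each. Lef1 was read at 9.32 ± 0.14 TPM in the double knockout, 10.9 ± 3.63 in LEF1cKO and 20.9 ± 0.76 in WT (SD, n = 2 each), with log2 fold changes over WT of -1.27 ± 0.25 in the double knockout and -0.92 ± 0.25 in LEF1cKO (adjusted p = 0.0122 and 0.282 in edgeR's quasi-likelihood test). Tcf7 was read at 15.8 ± 3.08 TPM in the double knockout, 28.6 ± 1.07 in LEF1cKO and 31.5 ± 6.42 in WT (-1.37 ± 0.21 in the double knockout over WT, adjusted p = 0.00641 by edgeR). These are sums over whole genes, so reads from any part left by a deletion count too.

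Skint genes encode membrane proteins with immunoglobulin-like outer domains, related to the butyrophilins, and are transcribed mainly in the keratinocytes of skin and in thymic epithelium. Skint1, the founding member, is needed in the mouse thymus for the selection of the gamma-delta T cells that settle in the epidermis as dendritic epidermal T cells. Skint2, also known as B7S3, has been described in the mouse as an inhibitor of T cell activation. Skint3 and Skint9 have been linked to signalling from wounded mouse keratinocytes to those T cells, and the roles of the remaining members are less known.

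All the genes sit in 1 cluster. In the RefSeq annotation of GRCm38, the assembly also called mm10, the 10 genes lay between positions 111919555 and 113999503 of chromosome 4, over 2.08 Mb, in the order Skint8, Skint7, Skint1, Skint4, Skint3, Skint9, Skint2, Skint10, Skint6 and Skint5. Skint11, a paralog outside the family as defined here, followed at 114163384 to 114245028. Skint9, Skint10, Skint6 and Skint5 lay on the minus strand. Skint6 and Skint5 covered 482358 and 521613 bases, and the other members 15337 to 96061 bases.

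The 250 bases before a RefSeq transcript start show which members resemble one another at the promoter, and they are shown for 5 genes whose levels are compared below. The letters are from RefSeq (GRCm38.p6), on the strand of the gene, and all 10 members had a window. That start was the outer end of the gene for 8 of the 10, and lay 3 bases inside it in Skint7 and 142 bases inside it in Skint2. In Skint5 (chr4:113999504-113999753, minus strand), Skint6 (chr4:113286974-113287223, minus strand) and Skint1 (chr4:112006019-112006268, plus strand), capitals mark a run of 14 bases they share with Skint3.
Skint5: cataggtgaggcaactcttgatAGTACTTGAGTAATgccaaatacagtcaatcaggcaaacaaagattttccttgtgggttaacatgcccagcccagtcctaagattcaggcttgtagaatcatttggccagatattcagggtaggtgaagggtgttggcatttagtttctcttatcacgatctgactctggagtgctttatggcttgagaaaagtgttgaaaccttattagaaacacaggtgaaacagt
Skint6: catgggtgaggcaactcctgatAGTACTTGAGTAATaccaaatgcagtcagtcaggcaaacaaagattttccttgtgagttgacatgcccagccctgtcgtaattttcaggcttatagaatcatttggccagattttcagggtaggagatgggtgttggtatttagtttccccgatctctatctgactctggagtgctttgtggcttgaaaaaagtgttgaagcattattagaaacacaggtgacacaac
Skint1: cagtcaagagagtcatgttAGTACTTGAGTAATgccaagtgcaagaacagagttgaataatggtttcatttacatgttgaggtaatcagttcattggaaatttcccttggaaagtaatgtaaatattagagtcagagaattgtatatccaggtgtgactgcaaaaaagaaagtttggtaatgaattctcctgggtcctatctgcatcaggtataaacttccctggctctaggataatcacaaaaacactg
In Skint7 (chr4:111972677-111972926, plus strand) and Skint8 (chr4:111919305-111919554, plus strand), capitals mark their best local alignment.
Skint7: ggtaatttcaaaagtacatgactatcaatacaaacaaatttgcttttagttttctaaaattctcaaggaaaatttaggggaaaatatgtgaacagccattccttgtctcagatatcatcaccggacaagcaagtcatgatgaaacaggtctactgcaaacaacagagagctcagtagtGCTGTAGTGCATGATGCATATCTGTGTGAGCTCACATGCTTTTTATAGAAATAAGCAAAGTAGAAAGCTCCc
Skint8: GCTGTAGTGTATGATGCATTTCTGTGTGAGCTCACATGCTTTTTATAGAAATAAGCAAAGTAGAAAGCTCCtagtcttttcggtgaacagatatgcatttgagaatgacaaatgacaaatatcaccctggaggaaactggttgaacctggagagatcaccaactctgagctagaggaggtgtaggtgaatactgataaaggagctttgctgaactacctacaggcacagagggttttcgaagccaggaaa

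Skint5 and Skint6 had nearly the same promoter, with 88.8% identity over the 250 bases, against a median of 60% over the 55 pairs among the 11 genes. Skint10 and Skint11 came next at 70%. The run AGTACTTGAGTAAT was picked as the longest shared by the Skint1, Skint3, Skint5 and Skint6 windows, so its presence in those 4 was fixed in advance. Its rarity was not set against that of other runs of its length, so nothing is read from it. It was found on either strand in 5 of 32851 promoter windows of the same length (0.0152%), and those 5 belonged to Skint1, Skint3, Skint4 (at a further start of that gene), Skint5 and Skint6. It began 228 bases before the start in Skint5 and Skint6, 231 in Skint1 and 103 in Skint3. In Skint7 and Skint8, 71 aligned bases matched at 97.2%, ending 2 bases before the start in Skint7 and 180 before it in Skint8. CTTTGA, 1 form of the core letters of LEF/TCF sites, was searched on both strands. It was in the window of 1 of 10 members, Skint10, and in 13.8% of all windows. The form CTTTGT was not searched and has no share over all windows. On the other strand it reads ACAAAG, which stands in the Skint5 and Skint6 windows printed above. ACAAAG stands in the Skint2 and Skint9 windows too, which are not printed. TATAAA was in 5 of 10 members and 12.4% of windows, CCAAT in 4 and 33.8%, and the AP-1 letters TGANTCA in 0 and 6.75%. These are letter matches in short windows and say nothing of binding.

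Every Skint gene was read in each group, and 7 of 10 reached 1 TPM in both WT libraries. The summed level of the 10 genes was 305 and 285 TPM in the double knockout, 52.7 and 116 TPM in LEF1cKO, and 49.9 and 43.4 TPM in WT. Both double knockout libraries stood above both WT libraries for all 10 genes, as in 43.4% of the genes tested. In LEF1cKO 5 did so, Skint5, Skint6, Skint7, Skint9 and Skint10, where 28.3% of the genes tested did, and the other 5 overlapped with WT. Both counts hold Skint5 and Skint7, which were chosen because they rose, so nothing is read from them. TPM is a level scaled for transcript length, so it can be set side by side between genes. In these bulk libraries, more cells of a type and more RNA per cell cannot be told apart.

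**Figure D1:**
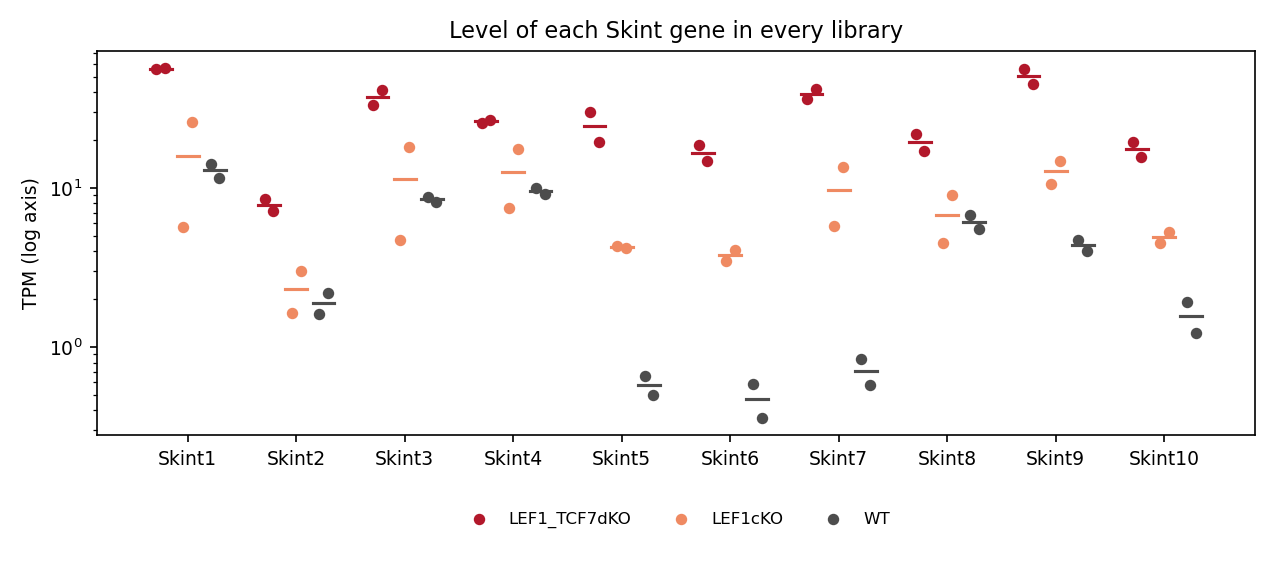
TPM (log axis) of each Skint gene in every library, with LEF1_TCF7dKO, LEF1cKO and WT from left to right within each gene; points are libraries and bars are means of 2. All 10 genes were higher in both double knockout libraries than in both WT libraries, as were 43.4% of the genes tested. Skint5, Skint6 and Skint7 lay under 1 TPM in WT.

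Skint1 led the family in WT. It was read at 55.7 and 56.5 TPM in the double knockout, 5.68 and 26.1 TPM in LEF1cKO, and 14.2 and 11.6 TPM in WT. The double knockout libraries lay close together and well above WT, while the LEF1cKO libraries fell on either side of WT. Skint1 rose in the double knockout over WT (log2 fold change 2.01 ± 0.56 SE, adjusted p = 0.0345 in edgeR's quasi-likelihood test, adjusted over the 19640 genes tested). The fitted value in LEF1cKO was 0.30 ± 0.55 (adjusted p = 0.933 by edgeR). Skint2 was the lowest member of the family in the double knockout, at 8.55 and 7.14 TPM, against 1.64 and 3.01 TPM in LEF1cKO and 1.61 and 2.19 TPM in WT. It rose in the double knockout over WT (1.91 ± 0.36, adjusted p = 0.0109 by edgeR).

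Skint3 and Skint9, the members linked to wounded keratinocytes, differed in their pattern. Skint3 had 33.1 and 41.5 TPM in the double knockout, 4.71 and 18.0 TPM in LEF1cKO, and 8.76 and 8.19 TPM in WT, with LEF1cKO again on either side of WT. It rose in the double knockout over WT (2.002 ± 0.54, adjusted p = 0.0318 by edgeR). Skint9 had 56.0 and 45.1 TPM in the double knockout, 10.6 and 14.9 TPM in LEF1cKO, and 4.68 and 4.03 TPM in WT, so the 3 groups did not overlap. It rose in the double knockout over WT (3.40 ± 0.21, adjusted p = 0.00133 by edgeR) and in LEF1cKO against WT (1.46 ± 0.20, adjusted p = 0.0462 by edgeR).

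Skint5, Skint6 and Skint7 were near the bottom of what was read in WT and far above it in the double knockout. Skint5 had 29.8 and 19.5 TPM in the double knockout, 4.33 and 4.22 TPM in LEF1cKO, and 0.66 and 0.50 TPM in WT. Skint7 had 36.3 and 41.5 TPM in the double knockout, 5.78 and 13.5 TPM in LEF1cKO, and 0.84 and 0.58 TPM in WT. The mean TPM of these genes in the double knockout was 42.5 times that in WT for Skint5 and 54.8 times for Skint7, and in LEF1cKO 7.37 and 13.6 times that in WT. Skint6 was not among the genes that singled out the family. Its log level correlated at 0.999 with that of Skint5 over the 6 libraries, so its tests are not independent of that choice. Skint6 had 18.6 and 14.7 TPM in the double knockout, 3.47 and 4.06 TPM in LEF1cKO, and 0.59 and 0.36 TPM in WT, again in 3 steps without overlap. It rose in the double knockout over WT (5.001 ± 0.28, adjusted p = 0.00115 by edgeR), in LEF1cKO against WT (2.92 ± 0.26, adjusted p = 0.0122 by edgeR) and in the double knockout against LEF1cKO (2.08 ± 0.24, adjusted p = 0.0108 by edgeR).

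Skint4, Skint8 and Skint10 completed the family. Skint4 had the smallest difference, with 25.7 and 26.6 TPM in the double knockout, 7.44 and 17.7 TPM in LEF1cKO, and 9.94 and 9.19 TPM in WT. Skint8 had 21.8 and 17.2 TPM in the double knockout, 4.52 and 9.09 TPM in LEF1cKO, and 6.73 and 5.53 TPM in WT. Both rose in the double knockout over WT (Skint4 by 1.31 ± 0.34, adjusted p = 0.0282 by edgeR, and Skint8 by 1.44 ± 0.29, adjusted p = 0.0135 by edgeR), and both had LEF1cKO libraries on either side of WT. Skint10 had 19.4 and 15.6 TPM in the double knockout, 4.53 and 5.30 TPM in LEF1cKO, and 1.92 and 1.23 TPM in WT. It rose in the double knockout over WT (3.26 ± 0.28, adjusted p = 0.00259 by edgeR), and for LEF1cKO the fitted value was 1.48 ± 0.27 (adjusted p = 0.114 by edgeR). The paralog Skint11 had 14.7 and 13.1 TPM in the double knockout, 2.55 and 2.93 TPM in LEF1cKO, and 0.72 and 1.26 TPM in WT (4.05 ± 0.25 in the double knockout over WT, adjusted p = 0.00133 by edgeR).

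**Figure D2:**
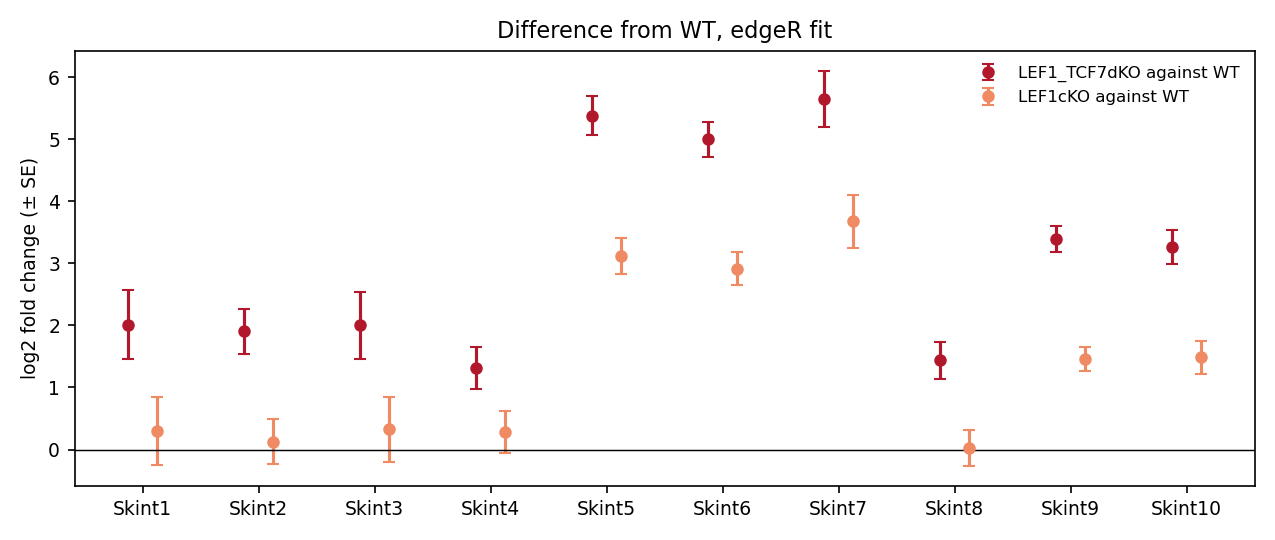
Fitted log2 fold change against WT for each Skint gene, with bars of 1 SE, for LEF1_TCF7dKO (left of each pair) and LEF1cKO. In the double knockout the values run from 1.31 in Skint4 to 5.65 in Skint7, and in LEF1cKO Skint1 to Skint4 and Skint8 lie near 0.

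Over the 8 members other than Skint5 and Skint7, all 8 were called higher in the double knockout against WT, where 18% of the genes tested were called higher and 19.6% lower, and 2 of 8 (Skint6 and Skint9) in LEF1cKO against WT, where 0.224% were, of 0.601% called either way (0.377% lower). Libraries of every group took part in the choice of the family. Nothing is read from these counts, or from those between the knockouts given next. In the double knockout against LEF1cKO, 5 of 8 were called higher (Skint2, Skint6, Skint8, Skint9 and Skint10), where 11.2% of all genes were, of 25.2% called either way (14.1% lower). Their log2 fold changes there ran from 1.41 ± 0.29 in Skint8 to 2.08 ± 0.24 in Skint6, and those of Skint1, Skint3 and Skint4, which missed the threshold, were 1.71 ± 0.55, 1.68 ± 0.54 and 1.02 ± 0.34 (adjusted p = 0.0677, 0.0656 and 0.0719 by edgeR). The median log2 fold change of the 8 was 2.01 in the double knockout against WT, 0.31 in LEF1cKO against WT and 1.75 between the knockouts, against 0.01 in each over all genes tested. Among the same 8, both double knockout libraries lay above both WT libraries in 8, as in 43.4% of the genes tested, and both LEF1cKO libraries lay above both WT libraries in 3, as in 28.3% of the genes tested; nothing is read from these either. Both double knockout libraries lay above both LEF1cKO libraries in 8 of the 8 and in 35% of the genes tested. All 10 members passed the filter on low counts, and the lowest expected count of any member in any library was 36.8, for Skint7 in WT replicate 2.

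Skint6, Skint9 and Skint10 kept their call in the double knockout against WT under all 16 alternatives, and the other tested members did not. Without WT replicate 1, WT replicate 2 or double knockout replicate 1 the count of 8 was 3, while 5 were called without double knockout replicate 2. Skint1 also missed the threshold in limma on log2(TPM + 1) (adjusted p = 0.0501). In LEF1cKO against WT, Skint9 lost its call in 11 of 16 alternatives (adjusted p up to 0.289), among them the leaving out of any library but LEF1cKO replicate 1, and Skint6 in 1, the fit of the compared groups alone (adjusted p = 0.0606). The count of 5 in the double knockout against LEF1cKO was 0 without double knockout replicate 1, 3 without double knockout replicate 2, and 8 without LEF1cKO replicate 2.

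The make-up of the Skint transcripts is given as a description, since a larger share of Skint5 and Skint7 in the knockouts follows from how the family was chosen. Skint5, Skint6 and Skint7 together held 27.8% and 26.6% of the summed TPM in the double knockout, 25.8% and 18.8% in LEF1cKO, and 4.19% and 3.32% in WT. Skint1, Skint2, Skint3, Skint4 and Skint8 held 47.5% and 52.2% in the double knockout, 45.6% and 63.8% in LEF1cKO, and 82.6% and 84.6% in WT. Over the 8 genes without Skint5 and Skint7, this second set held 60.6% and 66.4% in the double knockout, 56.4% and 75.3% in LEF1cKO, and 85.2% and 86.7% in WT, and Skint9 with Skint10 held 31.6% and 27.1% in the double knockout, 35.4% and 20.6% in LEF1cKO, and 13.6% and 12.4% in WT. The order of the levels differed between the groups. Skint1 and Skint9 came first in the double knockout and overlapped, followed by Skint7 and Skint3, which overlapped as well, and Skint2 came last and apart. In WT the order was Skint1, Skint4, Skint3, Skint8 and Skint9, each apart from the next, and then Skint2, Skint10, Skint7, Skint5 and Skint6. Skint2 overlapped with Skint10 there, and Skint7, Skint5 and Skint6 overlapped in that order. In LEF1cKO the first 6 in the order (Skint1, Skint9, Skint4, Skint3, Skint7 and Skint8) each overlapped with the next. The sets named here were drawn up after the values were seen and have no test.

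**Figure D3:**
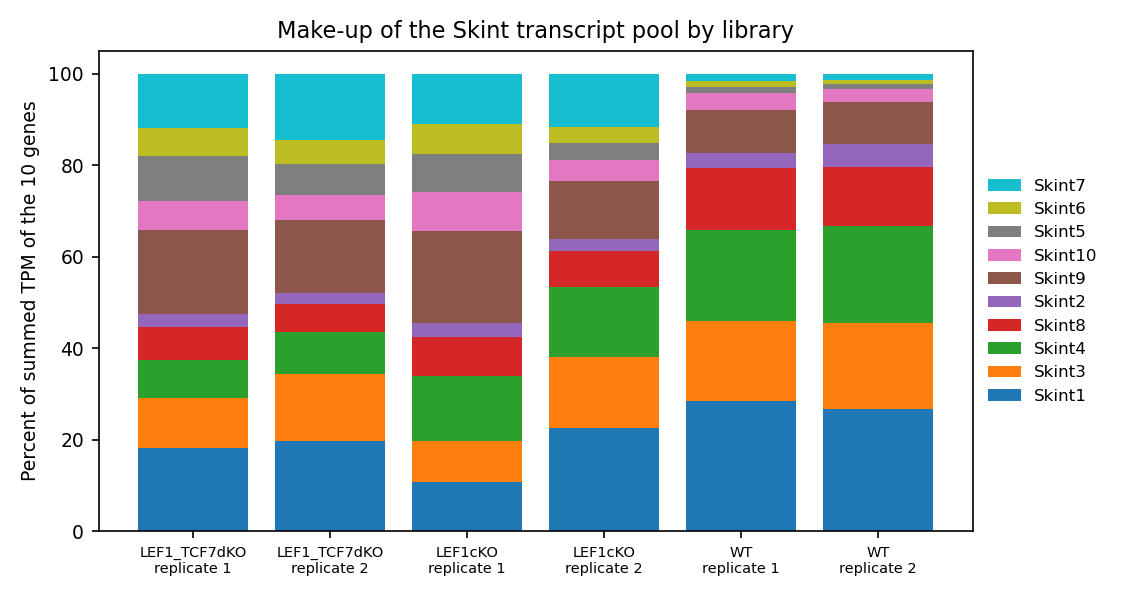
Percent of the summed TPM of the 10 Skint genes held by each gene, 1 bar a library. Skint5, Skint6 and Skint7, at the top of each bar, make up 26.6% to 27.8% in the double knockout, 18.8% to 25.8% in LEF1cKO and 3.32% to 4.19% in WT.

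The logCPM values of Skint6 and Skint5, neighbours in the cluster, correlated at 0.999 over the 6 libraries, the highest of the 45 pairs. The lowest correlation among the pairs was 0.698, between Skint1 and Skint5. These correlations run over 6 libraries that fall into 3 groups and serve as a description.

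Reads could be shared between copies. Of the 50-base stretches in the transcripts of Skint7 and Skint8, 7.63% and 8.11% also occurred in transcripts of another gene, mostly each other's. Skint5 and Skint6 shared 3.97% and 5.09%, mostly with each other as well, while Skint1, Skint9 and Skint10 shared 0%. The estimates of Skint5 to Skint8 are therefore uncertain, and these shares do not bound the error of a low gene beside a higher copy. In WT replicate 2, Skint7 had 36.8 expected counts and Skint8 397. The sources used here do not give whether strand was used in counting.

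**Figure D4:**
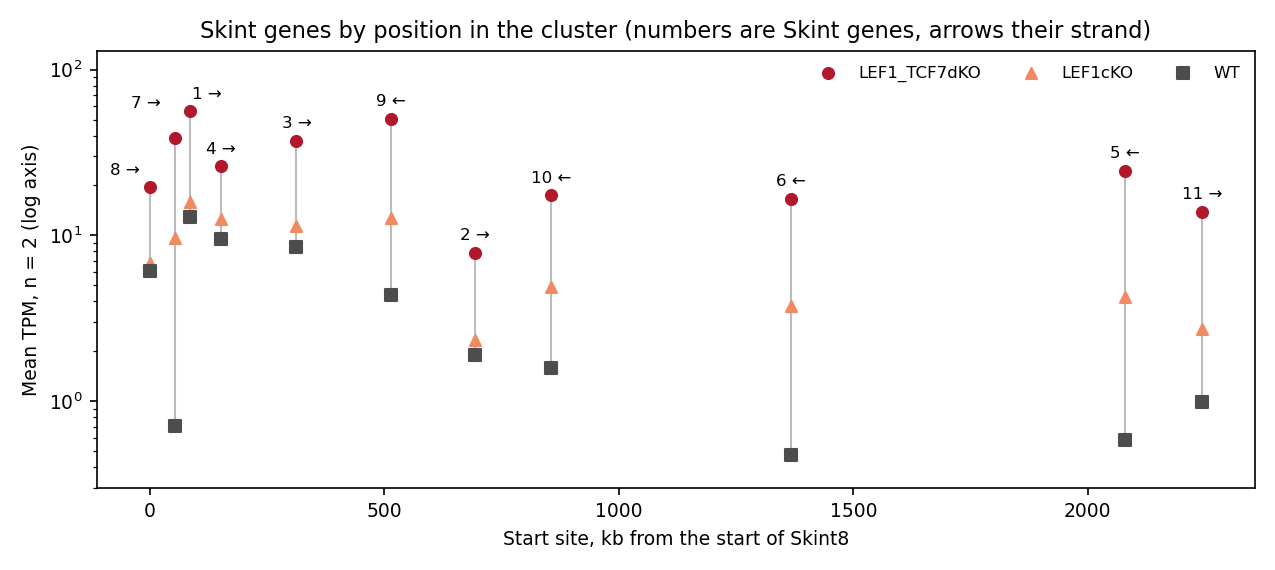
Mean TPM (log axis, n = 2) of each Skint gene, Skint11 included, against the distance of its start site from the start of Skint8, with arrows for the strand. The grey lines join the WT and double knockout means. Neighbours at the left of the plot differ in level in WT, with Skint7 at 0.71 TPM beside Skint8 at 6.13 and Skint1 at 12.9 TPM.

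The genes around the cluster did not share a direction. Of 11 other RefSeq genes between the start of Skint8 and the end of Skint11, 10 were in the files and 1 was tested, the pseudogene Gm12816 (0.01 ± 0.90 in the double knockout over WT, adjusted p = 0.996 by edgeR). Of the 3 nearest tested protein-coding genes on each side, 4 of 6 passed in the double knockout against WT, where 37.6% of all genes did. Slc5a9, which encodes a sodium-dependent sugar transporter and lies next to Skint8, rose (2.36 ± 0.38, adjusted p = 0.00729 by edgeR), with 8.68 and 10.2 TPM in the double knockout, 1.18 and 3.21 TPM in LEF1cKO, and 1.06 and 1.54 TPM in WT. Bend5 (-1.34 ± 0.28, adjusted p = 0.015 by edgeR), Trabd2b (-1.55 ± 0.10, adjusted p = 0.00143) and Cmpk1 (-0.50 ± 0.12, adjusted p = 0.0192) fell. Trabd2b, also known as Tiki2, encodes a protease that inactivates Wnt ligands, and Cmpk1 a nucleotide kinase. Spata6 and Foxd2 had values of 0.27 ± 0.14 and 0.67 ± 0.46 (adjusted p = 0.177 and 0.293 by edgeR).

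The LEF1cKO libraries differed from each other more for some Skint genes than for others. Replicate 2 had 4.59 times the TPM of replicate 1 for Skint1, 3.83 times for Skint3, 2.37 times for Skint4, 2.34 times for Skint7, 2.01 times for Skint8 and 1.84 times for Skint2. The ratio was 0.975 for Skint5, 1.17 for Skint6 and Skint10, and 1.41 for Skint9. Among 15090 genes at 1 TPM or more in either LEF1cKO library, 6.10% were at least 2 times higher in replicate 2 and 2.23% at least 2 times lower, on TPM + 0.1. Without LEF1cKO replicate 2 the log2 fold changes of Skint1 and Skint3 against WT were -0.96 and -0.87, with no call (adjusted p = 0.135 and 0.199 by edgeR), and those of Skint2, Skint4 and Skint8 also turned negative. Skint5, Skint6, Skint7, Skint9 and Skint10 kept their direction without any library.

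Markers of other epidermal cells also differed between the double knockout and WT, and their part in the Skint results was not tested. In the list of suprabasal epidermis genes, 25 of 34 tested rose in the double knockout against WT and 0 fell (median log2 fold change 2.14, against 0.01 over all genes, of which 18% were called higher and 19.6% lower), with 20 to 22 rises when 1 library of either group was left out. In LEF1cKO against WT 3 of 34 rose by edgeR, where 0.224% of all genes tested were called higher. By DESeq2 12 rose, where 637 of 19640 genes were called, 58.6% of them as rises. The summed level of the list was 15892 and 14604 TPM in the double knockout, 4153 and 4055 TPM in LEF1cKO, and 2288 and 1816 TPM in WT. The sums of the LEF1cKO libraries were close, but of 31 list genes at 1 TPM or more there, 9 were at least 2 times lower in replicate 2 (on TPM + 0.1), 0 at least 2 times higher and 22 in between. Of all genes at that level, 2.23% were at least 2 times lower and 6.10% at least 2 times higher. Lor, the loricrin of the cornified layer, had 19.8 and 4.97 TPM in LEF1cKO replicates 1 and 2. Krt78, a keratin of upper epithelial layers, stood at 44.4 ± 2.50 TPM in the double knockout, 9.74 ± 1.05 in LEF1cKO and 1.16 ± 0.21 in WT (SD, n = 2 each). Krt10 and Krt1, keratins of the first suprabasal layer, rose in the double knockout against WT by 3.39 ± 0.22 and 3.04 ± 0.16 (adjusted p = 0.00142 and 0.00108 by edgeR), and Krt77, a further suprabasal keratin, by 4.67 ± 0.28 (adjusted p = 0.00133 by edgeR). Among basal epidermis and infundibulum genes, 8 of 19 rose and 2 fell, against the same 18% and 19.6% of all genes (median 0.76; 4 to 7 rises and 0 to 2 falls without 1 library of either group), with Ly6d, a surface protein of keratinocytes, at 1070 ± 50.4 TPM in the double knockout and 274 ± 25.8 in WT. Between the LEF1cKO libraries, 5 of the 19 were at least 2 times higher in replicate 2, 1 was at least 2 times lower and 13 lay in between, beside the same 6.10% and 2.23% of all genes. Krt79, a gene of the upper follicle named after its values were seen, had 191 and 645 TPM in replicates 1 and 2, and Thbs1, which encodes thrombospondin 1 and went the other way, 371 and 163 TPM.

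In the hair germ list 12 of 17 genes fell and 3 rose in the double knockout over WT, where 19.6% of all genes fell and 18% rose (median log2 fold change -1.07; 5 to 12 lower and 0 or 1 higher without 1 library of either group). The labelled cell type could be checked there. Lhx2, a follicle stem cell transcription factor, had 114 and 198 TPM in the double knockout, 402 and 368 in LEF1cKO, and 337 and 381 in WT. Cdh3, the P-cadherin of the sort, had 65.9 and 85.9 TPM in the double knockout, 134 and 116 in LEF1cKO, and 134 and 130 in WT. Dlx3, a homeobox gene of the hair matrix, fell in the double knockout over WT (-4.34 ± 0.38, adjusted p = 0.00265 by edgeR; 6.07 ± 0.77 against 112 ± 14.9 TPM, n = 2). Other members stood higher in the double knockout, and the list is not of the hair germ alone, since it holds Krt15. Whether the sort took cells high or low in each marker is not given here. Cd34, which encodes a further sort marker, had 42.0 and 30.9 TPM in the double knockout, 11.3 and 17.8 in LEF1cKO, and 13.5 and 8.72 in WT. Krt15, a keratin of bulge stem cells, had 1438 and 2310 TPM in the double knockout, 784 and 1239 in LEF1cKO, and 760.4 and 745 in WT. Ly6a, of the basal list, which encodes Sca-1, had 111 and 97.3 TPM in the double knockout, 21.8 and 45.9 in LEF1cKO, and 26.5 and 14.7 in WT.

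Markers of the T cells that Skint1 helps select were low in every group. Of 19 list genes in the files, 10 lay under 1 TPM in both double knockout libraries, 15 in both LEF1cKO libraries and 14 in both WT libraries. Trdc, the constant region of the delta chain, had 0.37 and 0.21 TPM in the double knockout, 0.24 and 0.17 in LEF1cKO, and 0.26 and 0.28 in WT. The variable gene Trdv4 is used by epidermal gamma-delta T cells. It had 0.64 and 0.59 TPM in the double knockout, 0.25 and 0.70 in LEF1cKO, and 1.30 and 0.71 in WT. The second WT library was about level with the second LEF1cKO library, and LEF1cKO spanned the double knockout. Cd3e, of the T cell receptor complex, had 0.75 and 0.19 TPM in the double knockout, 0.10 and 0.29 in LEF1cKO, and 0.28 and 0.11 in WT (1.12 ± 0.87 in the double knockout over WT, adjusted p = 0.347 by edgeR). The summed list, most of it Thy1, was 95.0 and 88.8 TPM in the double knockout, 24.8 and 45.4 in LEF1cKO, and 37.0 and 22.6 in WT. Of 13 tested, 4 rose in the double knockout against WT and 0 fell, where 18% and 19.6% of all genes did (1 or 2 rises without 1 library of either group). These were Ccr4, a chemokine receptor (5.30 ± 0.55, adjusted p = 0.00342 by edgeR; 5.86 ± 0.40 against 0.14 ± 0.07 TPM, n = 2), Thy1, a surface protein of T cells and fibroblasts (1.72 ± 0.35, adjusted p = 0.013), the receptor genes Klrk1 (2.12 ± 0.57, adjusted p = 0.0318) and Amica1 (2.37 ± 0.74, adjusted p = 0.0488). Klrk1 was low and uneven, at 1.37 and 0.31 TPM in the double knockout against 0.15 and 0.22 in WT. Amica1 was low too, at 1.01 and 1.70 TPM against 0.29 and 0.19.

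Among keratinocyte genes known to signal to these T cells, 3 of 16 tested rose and 2 fell in the double knockout over WT, shares near the 18% and 19.6% of all genes (1 or 2 rises and 0 or 1 fall without 1 library of either group). H60c, which encodes a skin ligand of the receptor NKG2D in mice, had 24.1 and 22.2 TPM in the double knockout, 5.42 and 9.18 in LEF1cKO, and 5.27 and 4.74 in WT (2.07 ± 0.23 in the double knockout over WT, adjusted p = 0.00371 by edgeR), so the double knockout stood apart from both. Cdh1, the E-cadherin gene, rose to 236 ± 5.28 TPM, against 127 ± 0.86 in WT (0.76 ± 0.14, adjusted p = 0.0111 by edgeR), and lost its call without either WT library or double knockout replicate 1 (highest adjusted p = 0.0855). Ulbp1 and H60b, further NKG2D ligand genes, fell (-1.99 ± 0.40 and -1.65 ± 0.38, adjusted p = 0.0129 and 0.02 by edgeR). Between the LEF1cKO libraries, 6 of 15 genes of this list at 1 TPM or more were at least 2 times higher in replicate 2, 1 was at least 2 times lower and 8 lay in between. Of all genes at that level, 6.10% were at least 2 times higher and 2.23% at least 2 times lower. Of the butyrophilin relatives of the Skint genes, 0 of 6 tested passed in the double knockout against WT by edgeR, with 2 at an unadjusted p under 0.05, 0 by DESeq2, and at most 1 when a library was left out. Their summed level was 2.81 and 2.04 TPM in the double knockout, 0.70 and 1.32 in LEF1cKO, and 1.01 and 0.87 in WT.

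Markers of cells outside the epithelium also stood higher in the double knockout against WT, and their part in the Skint results was not tested. In the lists for leukocytes and Langerhans cells, fibroblasts, and vessels, 13 of 17, 11 of 11 and 9 of 10 tested rose and 0 fell, against 18% and 19.6% of all genes, with 10 to 13, 2 to 11 and 3 to 10 rises without 1 library of either group. Their summed levels were 1460 and 1384, 2032 and 1653, and 279.5 and 101 TPM in the double knockout, 438 and 663, 425 and 930, and 18.0 and 22.3 TPM in LEF1cKO, and 352 and 253, 341 and 157, and 31.1 and 16.1 TPM in WT. Cd207, the langerin of Langerhans cells, had 6.54 and 9.34 TPM in the double knockout, 2.14 and 2.58 in LEF1cKO, and 1.12 and 0.84 in WT. In the melanocyte, Schwann and Merkel cell list 3 of 11 tested rose and 1 fell, against the same shares of all genes (2 or 3 rises and 0 falls without 1 library of either group), and Atoh1, the defining Merkel cell factor, was listed at 0 in every library. Of these lists, none holds a Skint gene.

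The genes whose logCPM most resembled Skint1, Skint9 and Skint3, the 3 members with the highest mean TPM over all 6 libraries (though not the top 3 within any 1 group), were sought among 10437 genes with a mean of at least 5 TPM and leaving out Skint, mitochondrial and unnamed (Gm and Rik) genes. Closest to Skint1 were Sdr16c5, a retinol dehydrogenase gene (Pearson r = 0.998), Abcc3, a transporter gene (0.997), Atxn7l1 (0.996), Nebl (0.996) and Smim10l1 (0.995). Closest to Skint9 were Ankrd35 (1.0), Cd55, a complement regulator (0.999), Tjp3, of tight junctions (0.999), Gjb5, a connexin (0.998), and Sptlc3, of sphingolipid synthesis (0.998). Closest to Skint3 were Dram1, of autophagy (0.999), Adgrg6, an adhesion receptor (0.999), Tmem45a (0.998), Txnrd3 (0.996) and Abcb1b, a drug transporter (0.996). Ankrd35 had a mean of 49.3 TPM in the double knockout, 10.5 in LEF1cKO and 3.50 in WT, and Sdr16c5 had 87.5 TPM in the double knockout, 26.1 in LEF1cKO and 20.8 in WT. With 6 libraries in 3 groups, such values of r describe a shared order of libraries and carry no test.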

How the data were processed

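RNA sequencing of sorted mouse hair germ cells gave 6 libraries in 3 groups of 2, grouped by sample title. Bowtie2 2.2.9, RSEM 1.2.30 and mm10 are named in the submitters' processing notes; the sources used here do not give an annotation release. The expected counts deposited are unnormalized RSEM estimates. RSEM's TPM, scaled by the authors for length and depth, was used for levels, per the file headers, and FPKM was not used. A deposited TPM table of all libraries had identical values. Another 92 rows named no gene and held 0 counts. Totals ran from 40480694 to 63220022 expected counts. A count of 0 allows up to 3 counts, which is 0.0475 to 0.0741 CPM, for counting error only.

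Rounded expected counts were tested with edgeR 4.0.16 (TMM, filterByExpr, quasi-likelihood F test, all 6 libraries, 3 residual degrees of freedom) and adjusted by Benjamini-Hochberg over 19640 genes at 0.05. The procedure was tested on simulated data. The SE is the log2 fold change divided by the root of F. Alternatives were RLE factors, library size only, 2 other filters, DESeq2 1.42.0, limma 3.58.1 (voom, and log2 of TPM plus 1 or 0.1), a fit of the compared groups, a replicate block and leaving out each library. The spread of a lone library was taken to be that of the other groups. Levels are TPM, with SD over 2 libraries.

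The members, lists and tests were chosen with earlier results of these data known. Named were the members, Skint11, genes in and beside the cluster, from each list up to 4 genes with the smallest p past the threshold in the double knockout over WT (or the 2 highest), set marker genes, and the 5 genes of highest Pearson r for each of the 3 highest members. Not every named gene is printed. Promoter windows and positions are from RefSeq (GRCm38.p6), transcripts from GENCODE M21, in which all transcripts of the members were found.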

Additional observations from a re-analysis of the deposited data

How the results depend on the processing

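In the double knockout against WT, 7389 genes were called, and the number stayed within 1.5 times of that under all alternatives that kept every library. All 8 tested members were called under each of those except limma on log2(TPM + 1) and log2(TPM + 0.1), where 7 were. Leaving out 1 library gave 1968 to 8333 genes and 3 to 8 members. In LEF1cKO against WT, 118 genes were called, against 422 with no filter and 637 by DESeq2, and 78 to 138 when a library was left out. The 2 members called there were 3 with no filter or by DESeq2, where Skint10 was called as well. The count was 1 with library size only, voom, limma on log2(TPM + 1) or log2(TPM + 0.1), and the replicate block, and 0 with only the groups compared. In the double knockout against LEF1cKO, 4952 genes were called, against 2585 with only those groups, and 1 to 5973 when a library was left out. The 5 members called were 8 with no filter or DESeq2, and 0 to 8 when a library was left out. The share of calls that were rises in LEF1cKO against WT was 37.3% in the test used, 51.2% with no filter, 58.6% by DESeq2, 24.1% by voom, 17.8% and 23.7% by limma on log2(TPM + 1) and log2(TPM + 0.1), and 19.3% with only the groups compared.

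In LEF1cKO against WT, the log2 fold change of Skint1 was -0.040 in limma on log2(TPM + 1) and -0.071 on log2(TPM + 0.1), and -0.96 to 0.96 when a library was left out. The same range was -0.36 to 0.48 for Skint2, -0.87 to 0.97 for Skint3, -0.39 to 0.75 for Skint4 and -0.41 to 0.36 for Skint8, none of which was called by edgeR on all libraries. For Cd3e in the double knockout against WT it was -0.085 to 1.93. The causes were not tested. Same-numbered libraries showed no strong shared deviation, with correlations of -0.042, 0.056 and -0.028 between groups. Such values cannot show whether same-numbered libraries were prepared together. With the replicate block the calls were 80 in LEF1cKO against WT, 6435 in the double knockout against WT and 3635 between the knockouts.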
